A study of Arabidopsis thaliana with 12 samples.

Results

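The 5 genes described here were chosen by locus identifier from features that the authors' deposited tables list in all 3 mutants. They are XTH18 (AT4G30280), XTR6 (AT4G25810, also called XTH23), TCH4 (AT5G57560, also called XTH22), PHI-1 (AT1G35140, also called EXL1) and TCH2 (AT5G37770, also called CML24). The tables together list 1618 features, of which 68 appear in all 3 tables, and 56 of those are genes with a higher value than Col-0 in every mutant. RNA-seq of rRNA-depleted total RNA from whole Arabidopsis thaliana seedlings covered 12 samples. There were 3 biological replicates each of the wild type Col-0 and of nrpe1, swi3b +/- and idn2-1. Replicates of Col-0, nrpe1 and swi3b +/- were registered as 1 block, those of idn2-1 as a separate block that holds no Col-0. The labels do not say whether idn2-1 was grown and sequenced alongside the other genotypes, and an effect of batch was not tested. Plants were grown under long days for between 2 and 3 weeks, and all are labelled as seedlings. The label swi3b +/- denotes a heterozygote, so those plants still carry 1 working copy by their label. For nrpe1 no allele is named in the labels, which also record no touch, wounding or chemical treatment for any genotype. RNA polymerase V, whose largest subunit NRPE1 encodes, and the RNA-binding protein IDN2 both act in RNA-directed DNA methylation. SWI3B belongs to SWI/SNF complexes, which remodel nucleosomes.

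Plant cells stretch within a wall of cellulose microfibrils tethered by xyloglucan. Enzymes of the XTH family cut a xyloglucan chain and, as endotransglucosylases, join the cut end to another chain, which lets the wall be remodelled during growth. The TCH (touch) genes of Arabidopsis were found as transcripts that rise soon after leaves are touched. They include TCH4, an XTH enzyme, and TCH2 and TCH3, which are calcium-binding relatives of calmodulin. PHI-1, itself named after a phosphate-induced gene of tobacco cells, belongs to the EXORDIUM family of secreted, wall-associated proteins. The family has been linked to brassinosteroid-promoted growth and to carbon starvation.

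Each table gives 1 value per genotype in RPKM, reads scaled by transcript length and by library size, so levels can be compared between genes. No spread between the 3 replicates could be computed, and the read depth is unknown. A change rests on the authors' q-value, and listing requires a q below 0.05. Listing in all 3 tables was also the rule that chose the genes, so their ratios below are descriptions and no test of them was made. The nrpe1 and swi3b +/- tables share the same Col-0 values (identical in 164 of 164 features listed in both and above 0 in Col-0). The Col-0 values of the idn2-1 table were 0.856 times as large in the median, so its levels are on another scale, and all 3 comparisons rest on Col-0 plants. These are whole seedlings, in which a change in the number of cells of a type and a change in RNA per cell cannot be told apart. NRPE1 itself stood at 25.3% of Col-0 in the authors' deposited nrpe1 table, while neither SWI3B nor IDN2 is listed in any of the 3 tables.

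The sequence before the 5 genes is shown as a description. Listing in all 3 mutants was the rule that chose them, and a link between these sequences and the rises was not tested. The core site of the calmodulin-binding CAMTA transcription factors, CGCG, is known from genes that respond rapidly to cold and wounding. In the 250 bases before the RefSeq gene start (TAIR10.1), CGCG was present in XTH18, PHI-1 and TCH2, against 10.1% of 27443 protein-coding genes. In the same 3 windows the match extended to the rapid stress response element CGCGTT, found on either strand, which 2.59% of genes hold. The 3 windows are printed 5′ to 3′ on the strand of the gene, with CGCG and any CGCGTT or its reverse complement in capitals. They lie at chr4:14827212-14827461 (minus strand) for XTH18, chr1:12851733-12851982 (plus strand) for PHI-1 and chr5:14999620-14999869 (minus strand) for TCH2.
XTH18: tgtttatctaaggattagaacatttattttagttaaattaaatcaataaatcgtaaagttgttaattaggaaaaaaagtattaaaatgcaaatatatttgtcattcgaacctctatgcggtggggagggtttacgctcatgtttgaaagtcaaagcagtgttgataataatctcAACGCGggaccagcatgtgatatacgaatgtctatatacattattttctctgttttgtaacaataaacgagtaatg
PHI-1: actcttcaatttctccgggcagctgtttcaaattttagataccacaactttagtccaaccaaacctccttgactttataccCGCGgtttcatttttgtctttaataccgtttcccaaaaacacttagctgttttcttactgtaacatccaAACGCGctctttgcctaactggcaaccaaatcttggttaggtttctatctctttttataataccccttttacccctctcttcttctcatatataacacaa
TCH2: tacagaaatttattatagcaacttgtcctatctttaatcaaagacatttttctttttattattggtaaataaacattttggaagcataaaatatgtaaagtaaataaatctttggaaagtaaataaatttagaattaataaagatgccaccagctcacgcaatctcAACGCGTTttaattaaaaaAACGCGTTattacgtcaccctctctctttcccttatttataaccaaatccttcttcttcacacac

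TCH2 carries the element in both orientations at each of its 2 places, 82 and 63 bases before the start of the gene. For XTH18, XTR6 and TCH4 the RefSeq start lies 164, 249 and 398 bases upstream of the start used in the deposited tables. For these genes the window above therefore misses the sequence just before the tables' start. The CGCG of XTH18 lies 238 bases before that start. In the 500 bases before the start codon, a window added after the files were seen, all 5 genes hold CGCG, against 20.8% of protein-coding genes. CGCGTT was again present in 3 of the 5 genes, against 5.46%. With the anchor alone changed (250 bases before the start codon) 4 of the 5 genes hold CGCG, all but XTH18, against 12.2% of genes. With the length alone changed (500 bases before the RefSeq start) the same 3 genes hold it as in the first window, against 18% of genes. The sites of XTR6 and TCH4 before the start codon are shown in 30 bases each, with CGCG in capitals. They lie 169 bases (XTR6, chr4:13128461-13128490, plus strand), and 186 and 107 bases (TCH4, chr5:23308452-23308481 and chr5:23308373-23308402, minus strand), before the tables' gene start. RefSeq counts all 3 as transcribed leader.
XTR6 site: gaaaaaccaaaacCGCGtcaccaactccaa
TCH4 distal site: actaaacaaaaacCGCGtgatttccaaagc
TCH4 proximal site: gttgcctcaaagaCGCGgcttcttctttcg

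**Figure D1:**
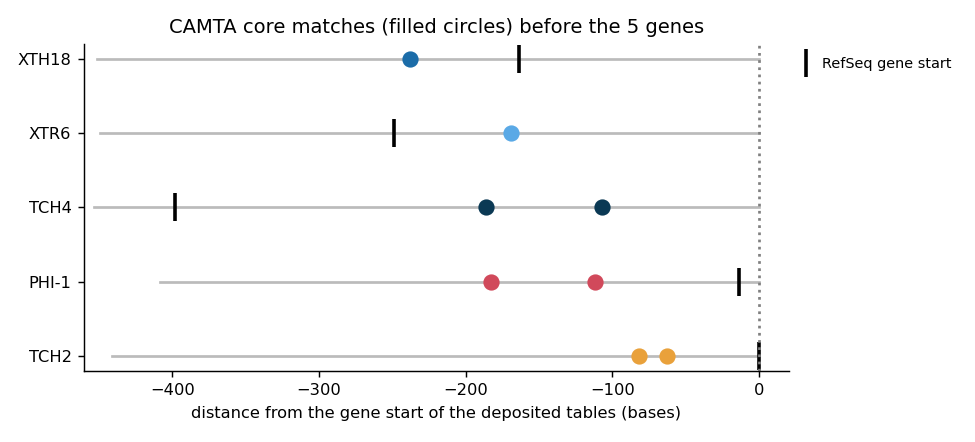
Matches to the CAMTA core in the 500 bases before the start codon of each gene, by distance in bases from the gene start of the deposited tables (dotted line); circles are matches, grey lines the part of the window before that start, and black ticks the RefSeq gene start. XTH18 and XTR6 have 1 match each, the other genes 2 each, all between 63 and 238 bases before the tables' start.

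Other elements searched in the same 250-base windows are, apart from the G box, held by a larger share of all genes than CGCG. The W box core TTGAC, a site of WRKY factors, was present in 4 of 5 genes and in 44.9% of all genes. In the 250 bases before the start codon it was in none of the 5 and in 41.1% of all genes. The letters TATAAA of the TATA box, on either strand and at any distance, were present in 4 of 5 against 47.3%. In PHI-1 and TCH2 they were only on the strand opposite the gene. The E box CANNTG was present in 3 of 5 against 55.3%. The G box CACGTG, which is 1 form of the E box, was in none of the 5 and in 6.49% of all genes. Both strands were searched for every element, CGCGTT contains CGCG, and a match is only a run of letters, not a shown binding site.

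XTH18 encodes an endotransglucosylase of the XTH family and lies on chromosome 4 (14825808 to 14827047 in the tables, TAIR10, minus strand, 3 coding exons, 282 residues). The authors' deposited tables give 11.6 RPKM in Col-0, 48.4 in nrpe1 and 38.8 in swi3b +/-. In the idn2-1 table, the authors' deposited values are 9.95 RPKM in Col-0 and 53.8 in the mutant. The gene was thus 4.16-fold higher in nrpe1, 3.33-fold in swi3b +/- and 5.40-fold in idn2-1. It had the highest nrpe1 ratio of the 5 genes, ranking 17 among the 257 genes listed as higher in nrpe1 with both values above 0. Its level was 1.25 times as high in nrpe1 as in swi3b +/-, a difference with no replicate check.

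XTR6 encodes another xyloglucan endotransglycosylase, on the same chromosome (13128643 to 13129884, plus strand, 3 coding exons, 286 residues). Its level in the authors' deposited tables was 15.0 RPKM in Col-0, 43.2 in nrpe1 and 39.3 in swi3b +/-. The authors' deposited idn2-1 table gives 13.1 RPKM in Col-0 and 68.8 in the mutant. These values make ratios of 2.88 in nrpe1, 2.62 in swi3b +/- and 5.25 in idn2-1. XTR6 had the smallest ratio of the 5 genes in swi3b +/-, where it ranked 136 of 479 higher genes, and ranked 16 of 314 in idn2-1. As for XTH18, nrpe1 stood slightly above swi3b +/-, by 1.10 times.

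TCH4 is the most abundant transcript of the 5 in every genotype. It lies on chromosome 5 (23307130 to 23308282, minus strand, 2 coding exons, 284 residues). The authors' deposited tables give 260.8 RPKM in Col-0, 597.6 in nrpe1 and 1072 in swi3b +/-. In the idn2-1 comparison of the authors' deposited tables it rose from 244.1 to 728.9 RPKM. The ratios were 2.29, 4.11 and 2.99 in nrpe1, swi3b +/- and idn2-1. With 1072 RPKM, TCH4 had the highest level of all 479 genes higher in swi3b +/-, and in nrpe1 it ranked 2 of 257 by level. In idn2-1 it ranked 26 of 314 by level. In contrast to XTH18 and XTR6, swi3b +/- stood 1.79 times above nrpe1.

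PHI-1 varied most between the mutants. It lies on chromosome 1 (12851997 to 12853128, plus strand, 1 coding exon, 309 residues). Its level in the authors' deposited tables was 11.6 RPKM in Col-0, 26.9 in nrpe1 and 93.0 in swi3b +/-. The authors' deposited idn2-1 table gives 9.88 RPKM in Col-0 and 87.9 in the mutant. The level in swi3b +/- was 3.46 times that in nrpe1, the widest gap between those genotypes among the 5 genes. In nrpe1 PHI-1 was 2.32-fold above Col-0 and ranked 59 of 257, whereas it ranked 3 of 479 in swi3b +/- and 6 of 314 in idn2-1. Its log2 ratios over the 3 mutants spanned 1.94, against 0.70 to 1.00 for the other 4 genes.

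TCH2 encodes a calmodulin-like calcium-binding protein and is not itself a wall enzyme. It lies on chromosome 5 (14998854 to 14999619, minus strand, 1 coding exon, 161 residues). The authors' deposited tables give 32.7 RPKM in Col-0, 84.6 in nrpe1 and 131.8 in swi3b +/-. In the authors' deposited idn2-1 table the values are 27.9 and 67.7 RPKM. TCH2 was 2.59-fold higher in nrpe1, 4.04-fold in swi3b +/- and 2.43-fold in idn2-1. It had the smallest idn2-1 ratio of the 5 genes, ranking 125 of 314, and the level in swi3b +/- was 1.56 times that in nrpe1.

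**Figure D2:**
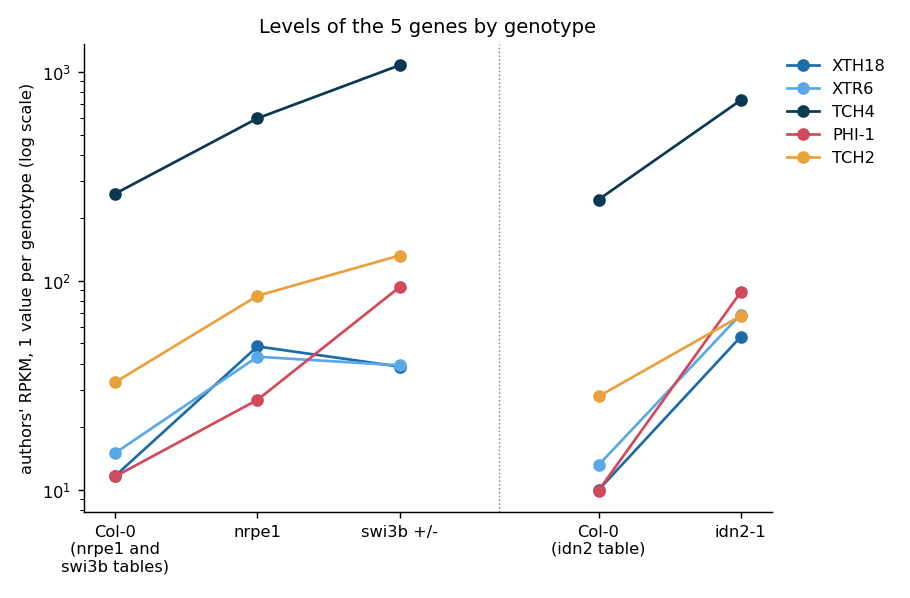
Level of each gene in RPKM (log axis) by genotype, 1 authors' value per point and no error bars because the tables hold none; the dotted line separates the idn2-1 table, whose Col-0 values are on another scale. TCH4 lies highest throughout, from 244.1 to 1072 RPKM, and PHI-1 climbs from 11.6 RPKM in Col-0 to 93.0 in swi3b +/-.

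By direction, all 5 genes were higher in every mutant, which the choice of genes largely fixes. For reading that count, 56 of the 66 genes listed in all 3 tables were higher in every mutant. The share of all tested features listed as higher was 1.04% in nrpe1, 1.87% in swi3b +/- and 1.24% in idn2-1. The median ratio of the 5 genes was 2.59 in nrpe1, 4.04 in swi3b +/- and 5.25 in idn2-1. Among all genes listed as higher in the same tables it was 1.91, 2.18 and 2.31. Those genes needed listing only in the table itself, while the 5 genes were listed in every table and chosen with earlier results known. The sizes and adjusted p-values in this paragraph are therefore descriptions too, and no test of them was made. The largest q of any of the 5 genes was 4.16e-06 in nrpe1, 5.36e-08 in swi3b +/- and 0.00118 in idn2-1 in the authors' deposited tables, so none lay near the limit of listing. All 15 ratios were above 2, and rises of at least that size were listed for 0.47% of tested features in nrpe1, 1.2% in swi3b +/- and 1.09% in idn2-1. Among features listed as higher, that is 127 of 280 in nrpe1, 311 of 485 in swi3b +/- and 302 of 343 in idn2-1. With a Bonferroni adjustment of the authors' p-values, 14 of the 15 changes stayed below 0.05, TCH4 in idn2-1 at 0.0476, and TCH2 in idn2-1 did not (adjusted p = 0.244). By that stricter rule 0.259%, 0.688% and 0.191% of tested features were higher in nrpe1, swi3b +/- and idn2-1. Among features listed as higher, that is 70 of 280, 178 of 485 and 53 of 343.

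**Figure D3:**
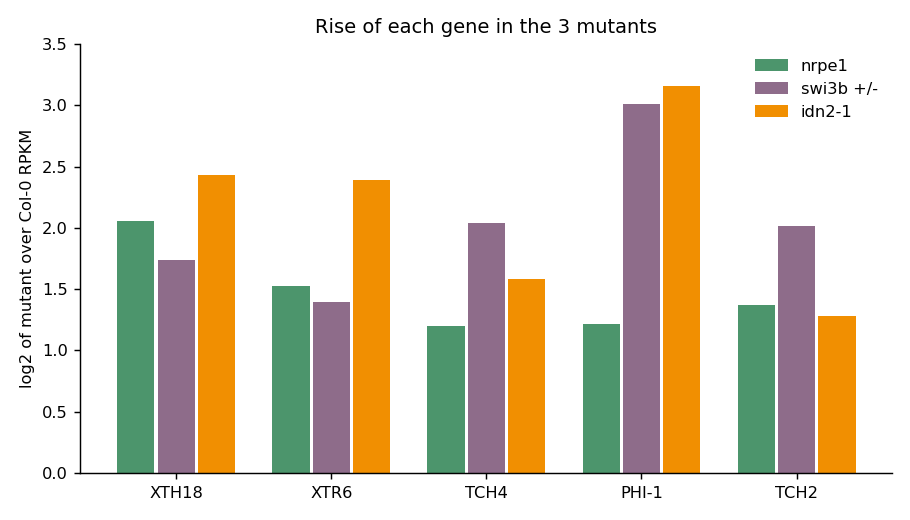
Log2 of the mutant over the Col-0 RPKM for each gene in nrpe1, swi3b +/- and idn2-1; bars start at 0 and carry no error because each rests on 1 value per genotype. XTH18 and XTR6 are tallest in idn2-1 (2.43 and 2.39), TCH4 and TCH2 in swi3b +/- (2.04 and 2.01), and PHI-1 in both swi3b +/- and idn2-1 (3.01 and 3.15).

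The order of the mutants differed between the genes. XTH18 and XTR6 had their highest ratio in idn2-1, then nrpe1, then swi3b +/-. TCH4 and TCH2 had it in swi3b +/-, with idn2-1 next for TCH4 and nrpe1 next for TCH2. PHI-1 was about equally high in idn2-1 and swi3b +/- and lowest in nrpe1. The order for TCH4 and TCH2 depends on the centre: after the median log2 ratio of the listed genes of each table was subtracted, idn2-1 was highest for both (2.56 for TCH4 and 2.26 for TCH2), then swi3b +/- (1.03 and 1.01), then nrpe1 (0.53 and 0.71). The order for XTH18, XTR6 and PHI-1 was the same after centring, which could hardly change it. The subtracted medians were 0.67 in nrpe1, 1.01 in swi3b +/- and -0.98 in idn2-1, and depend on which genes are listed. Centring therefore raises idn2-1 against nrpe1 and swi3b +/- for every gene, and idn2-1 was already highest for XTH18, XTR6 and PHI-1. For PHI-1 the near tie became 4.13 in idn2-1 against 2.00 in swi3b +/-. To place levels on 1 scale, the idn2-1 values were divided by 0.856, which gave 62.8 RPKM for XTH18, 80.4 for XTR6, 851.6 for TCH4, 102.7 for PHI-1 and 79.1 for TCH2. On that scale, idn2-1 was 1.62 and 2.04 times swi3b +/- for XTH18 and XTR6, and 1.10 times for PHI-1. For TCH4 and TCH2 swi3b +/- was the higher, 1.26 and 1.67 times idn2-1. Which neighbours in these orders differ beyond replicate spread cannot be told from 1 value per genotype. The place of idn2-1 in these orders also rests on replicates registered separately from Col-0, nrpe1 and swi3b +/-.

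The scale between the tables was not the same for every gene. Col-0 in the idn2-1 table was 0.854 times its value in the nrpe1 table for XTH18, PHI-1 and TCH2, but 0.875 times for XTR6 and 0.936 times for TCH4. With the common factor applied to Col-0 in place of the deposited value, TCH4 was 3.27-fold higher in idn2-1 rather than 2.99-fold, and XTR6 5.37-fold rather than 5.25-fold. Under that rescaling the order of the mutants stayed the same for all 5 genes. The idn2-1 levels in the paragraph above also used the common factor. With their own factors, XTR6 and TCH4 would have lower idn2-1 levels. The lead of swi3b +/- for TCH4 would then be wider, and the lead of idn2-1 for XTR6 narrower.

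**Figure D4:**
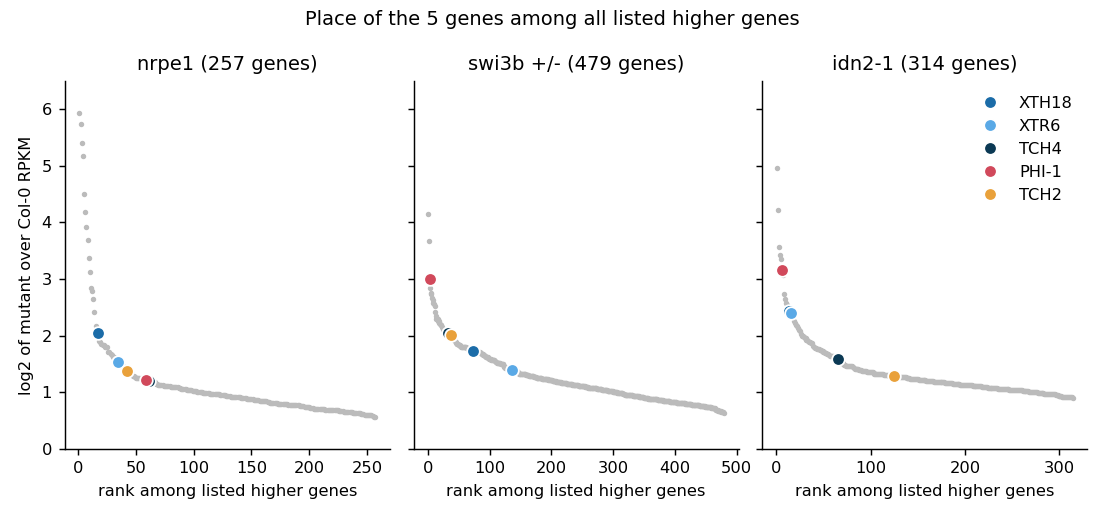
Log2 ratio against rank for all genes listed as higher in each mutant with both values above 0 (grey points, 257, 479 and 314 genes), with the 5 genes in colour. XTH18 is the highest placed of them in nrpe1 (rank 17) and PHI-1 in swi3b +/- and idn2-1 (ranks 3 and 6).

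As a pattern over the 3 log2 ratios, the closest pair among the 5 genes was TCH4 and TCH2, at a Euclidean distance of 0.35, followed by XTH18 and XTR6 at 0.63. PHI-1 and TCH2 were farthest apart at 2.13. This grouping does not follow sequence. Over aligned coding bases, XTR6 and TCH4 are 83.0% identical and XTH18 and TCH4 76.1%, while TCH4 and TCH2 belong to different families. Among the other 60 genes with a ratio in all 3 tables, the nearest to TCH4 was SQP1, annotated as an FAD/NAD(P)-binding oxidoreductase, at a distance of 0.15. The log2 ratios of SQP1 were 1.10, 2.00 and 1.47 in nrpe1, swi3b +/- and idn2-1, against 1.20, 2.04 and 1.58 for TCH4. Nearest to PHI-1 was AT5G19240, a GPI-anchored glycoprotein gene, at 0.65, with ratios of 2.02, 5.89 and 6.64. The nearest to XTH18, XTR6 and TCH2 were AT2G35658 (0.24), AT5G02230 (0.36) and AT4G16880 (0.30). All these comparisons share the Col-0 plants.

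Of the 33 annotated XTH genes, 7 are listed in at least 1 table and 26 in none. Beside the 3 described above, XTH31 rose 3.09-fold in nrpe1 and 2.96-fold in swi3b +/-, from 1.31 RPKM in Col-0, in the authors' deposited tables. XTH15 fell in the same mutants, from 34.1 RPKM to 19.3 in nrpe1 and 13.2 in swi3b +/- (q = 0.00279 and 3.02e-07) in the authors' deposited tables. In idn2-1, XTH16 and XTH19 rose 1.89-fold and 2.32-fold (q = 0.0445 and 0.0342) in the authors' deposited table. The family therefore had 4 higher and 1 lower listed members in nrpe1 and in swi3b +/-, and 5 higher and none lower in idn2-1, with XTH18, XTR6 and TCH4, chosen for being listed, among the higher ones. Without those 3, the other 30 genes had 1 higher and 1 lower in nrpe1 and in swi3b +/-, and 2 higher in idn2-1. The share of all tested features listed as higher was 1.04%, 1.87% and 1.24% in nrpe1, swi3b +/- and idn2-1. The share listed as lower was 0.848% in nrpe1, 0.556% in swi3b +/- and 1.95% in idn2-1. At a q below 0.01 only XTH18, XTR6 and TCH4 remained in idn2-1. An XTH gene that is not listed cannot be called unchanged.

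Several of the 5 genes lie beside a relative. XTH18 sits between XTH24 and XTH19 on chromosome 4, with gaps of 5161 and 1500 bases. XTR6 is followed by XTH14 after 363 bases, TCH4 is separated from XTH25 by 565 bases, and TCH2 from the calmodulin gene CAM1 by 4846 bases, each pair on the same strand. Of these neighbours, XTH19 in idn2-1 is the only listed one. XTH18 also has close copies, being 92.2% identical to XTH17, 89.6% to XTH19 and 86.3% to XTH20 in aligned coding bases. Of its 1191 windows of 50 bases across the locus, 19 occur elsewhere in the genome, and none did for XTR6, TCH4, PHI-1 or TCH2. How the authors' counting treated reads that match several copies is not stated in the labels or files. XTH18 carries that uncertainty, as does XTH19 as its close copy, though the windows of XTH19 were not checked. Only exact matches of 50 bases were searched, so sharing of reads aligned with mismatches was not tested for any of the 5 genes.

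TCH3 is the other TCH gene listed in all 3 tables, at a high level and with smaller ratios. The authors' deposited tables give 187.5 RPKM in Col-0, 316.3 in nrpe1 and 311.0 in swi3b +/-. Its ratios were 1.69 and 1.66 there and 2.37 in idn2-1 (q = 0.00293, 0.0153 and 0.00963 in the authors' deposited tables). CML23, the closest relative of TCH2 among the named calmodulin genes (82.3% identical over aligned coding bases), rose 2.17-fold in nrpe1 and 3.32-fold in swi3b +/- in the authors' deposited tables. CML38, also calmodulin-like, rose 4.11-fold in swi3b +/- and 2.39-fold in idn2-1 in the authors' deposited tables. The family list, the 21 genes with a CAM, CML or TCH name, thus had 3 listed members in nrpe1, 4 in swi3b +/- and 3 in idn2-1, all higher. TCH2, chosen for being listed, is among them in each mutant. The other 20 genes had 2, 3 and 2 listed as higher, against 1.04%, 1.87% and 1.24% of all tested features. Calmodulin-like genes without such a name in the annotation are not in the list, which may therefore be only a part of the family.

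EXO, the founding member of the PHI-1 family and its closest relative here (74.4% identical over aligned coding bases), started from a higher level. It rose from 48.2 to 143.2 RPKM in swi3b +/- and from 41.2 to 118.5 RPKM in idn2-1 in the authors' deposited tables, 2.97-fold and 2.88-fold. It is not listed in nrpe1, the mutant in which PHI-1 had its smallest ratio. The other 6 genes of the family of 8 are in none of the tables. Without PHI-1, chosen for being listed, the other 7 genes had 0 listed as higher in nrpe1. They had 1, EXO, in swi3b +/- and in idn2-1. The share of all tested features listed as higher was 1.04% in nrpe1, 1.87% in swi3b +/- and 1.24% in idn2-1.

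**Figure D5:**
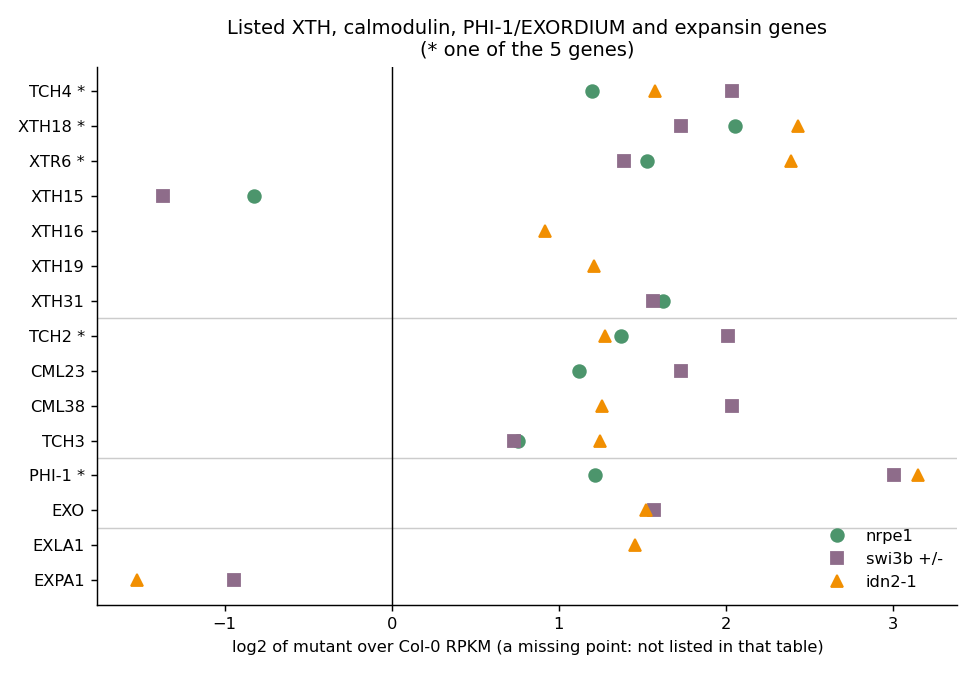
Log2 ratios of every listed gene of the XTH, calmodulin, PHI-1/EXORDIUM and expansin lists in nrpe1 (circles), swi3b +/- (squares) and idn2-1 (triangles), with the 5 genes starred; a gene without a symbol for a mutant is not listed there. XTH15 and EXPA1 are the listed genes left of 0, and PHI-1 lies farthest right at 3.01 and 3.15.

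Expansins loosen the wall without cutting xyloglucan, and the list of 37 genes taken by name also holds expansin-like genes. None of the 37 is listed in nrpe1. EXPA1 fell 1.93-fold in swi3b +/- and 2.88-fold in idn2-1, and the expansin-like gene EXLA1 rose 2.75-fold in idn2-1, in the authors' deposited tables. None of 7 genes for xyloglucan synthesis and trimming and none of 10 brassinosteroid genes is listed in any table. The share of all tested features listed in either direction was 1.88% in nrpe1, 2.43% in swi3b +/- and 3.18% in idn2-1. A count of 0 in lists this short is near that share. A count of 1 in the shorter lists below is a larger share, but rests on a single gene. Of 9 genes for touch sensing and signalling, OPR3, an enzyme of jasmonate synthesis, is the listed one, with a 1.68-fold rise in swi3b +/- (q = 0.00763) in the authors' deposited table. Of 5 cellulose synthesis genes, COB, needed for oriented cellulose deposition, fell 1.59-fold in swi3b +/- (q = 0.0360) in the authors' deposited table. The channel genes MCA1, MCA2, MSL9 and MSL10, the receptor kinase gene FER and CAMTA3 are in none of the tables. The smallest fold of any listed feature with both values above 0 was 1.47 in nrpe1, 1.55 in swi3b +/- and 1.86 in idn2-1. No smaller change was listed, and larger ones can also go unlisted, so a gene that is not listed cannot be called unchanged.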

How the data were processed

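Per the labels' protocols, total RNA was isolated with an RNeasy kit and depleted of rRNA with a RiboMinus kit. TopHat, Cufflinks and TAIR10 are named, without versions, per the submitters' processing notes. Per the file headers, the authors deposited 1 RPKM value per genotype, a log2 fold change, a p-value and a q-value for each mutant against Col-0. How replicates were combined, how the test was made and whether strand was used are not given in the sources used here. Deposited log2 values equal the log2 RPKM ratio to within 1.24e-05 where both values are above 0. No per-sample column was left unmapped (0 columns).

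Ratios were computed here within each table, with no pseudocount and no new test. The number of tests behind each table (27012, 25877 and 27755 for nrpe1, swi3b +/- and idn2-1) was worked out from how q follows p and its rank under a Benjamini-Hochberg adjustment, a step checked on simulated data. Starts had 1 added. All 1838 entries matched by identifier overlapped their RefSeq TAIR10.1 gene. Sequences, gene names and coding lengths come from RefSeq TAIR10.1, read with Python 3.11.15, pandas 2.3.3 and Biopython 1.88. Families were taken by symbol, synonym or product, leaving out 2 lipases that share the EXL name.

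The genes and lists were chosen with earlier results of these data known. Named genes are the 5 genes, every listed gene of the lists, and for each of the 5 the nearest gene listed in all 3 tables by Euclidean distance over the log2 ratios. The neighbouring genes, and the list members named as not listed, were named outside that rule. Alternatives were other thresholds, pseudocounts of 0.1 and 1, centring, the Col-0 scale, the background and the anchor and length of the promoter window.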

Additional observations from a re-analysis of the deposited data

How the results depend on the processing

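All 15 ratios kept their direction under every alternative run, and moved by less than 1.5 times with a pseudocount of 0.1 or 1 and, in idn2-1, with Col-0 taken from the nrpe1 table and rescaled. Subtracting the median log2 ratio of the listed genes moved all 15 by more, since that median was 0.67 in nrpe1, 1.01 in swi3b +/- and -0.98 in idn2-1 and depends on which genes are listed. Centred log2 ratios in nrpe1 were 1.39 (XTH18), 0.86 (XTR6), 0.53 (TCH4), 0.55 (PHI-1) and 0.71 (TCH2). In swi3b +/- they were 0.73, 0.38, 1.03, 2.00 and 1.01, and in idn2-1 3.41, 3.37, 2.56, 4.13 and 2.26, in the same order of genes, which puts idn2-1 highest for TCH4 and TCH2 in place of swi3b +/-. Listed XTH genes in idn2-1 went from 5 to 3 at a q below 0.01, and listed expansins in swi3b +/- from 1 to 0 at a minimum of 2-fold. Promoter windows were varied after seeing the data. Genes with CGCG went from 3 to 5 when both the anchor and the length were changed (500 bases before the start codon), to 4 with the anchor alone, and stayed at 3 with the length alone. TTGAC went from 4 to 0 genes in the 250 bases before the start codon, and CANNTG from 3 to 5 in the 500 bases before the RefSeq start. The nearest gene was the same by the largest absolute difference for all 5. With annotated loci in place of recovered tests the shares listed changed by less than 1.5 times. No paired analysis was possible because the tables hold 1 value per genotype; for the same reason no replicate could be left out. Depth is unknown, so no counting intervals are given.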

Other observations

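The same search for CGCG in the 500 bases before the start codon was run on related genes. Of 49 other protein-coding genes listed as higher in all 3 tables, 21 hold it (42.9%), against 20.8% of all protein-coding genes, and 10 hold CGCGTT (20.4%), against 5.46%. SZF1, a zinc finger gene, CMPG1, a ubiquitin ligase gene of defence, and HSPRO2 are among the 21. Of the other 30 XTH genes only XTH13, XTH20 and XTH26 hold CGCG, none of which is listed in any table. Of the other 20 genes of the calmodulin list, taken by name, 6 hold it, CML23 among them, and TCH3 does not. Of the other 7 genes of the PHI-1 family EXL5 and EXL6 hold it, and EXO does not. These are counts of letters in 1 window length, the genes were chosen for their rise, and no test was made. Genes named in this paragraph were chosen after their matches were seen.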
